A study of Mus musculus with 8 samples.

Results

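Cxcl12, Cxcr4 and Ackr3 are a chemokine and its 2 receptors, and they were chosen by name as 3 of the 33027 genes measured in single cells of mouse lung. The protein CXCL12 is secreted, binds heparan sulfate on cell surfaces and in the matrix, and guides leukocytes and vascular cells that carry the receptor CXCR4. CXCR4 signals through inhibitory G proteins, whereas ACKR3 (formerly CXCR7) is an atypical receptor that recruits arrestin, internalises CXCL12 and so removes it from the tissue. In the lung, CXCL12 from stromal and endothelial cells is known for holding CXCR4-bearing leukocytes and for shaping vessels.

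The mice were 8 Sftpc-CreERT2-mTmG animals on a C57BL/6 background, in which tamoxifen switches a membrane reporter from red to green in cells that express the surfactant gene Sftpc. Tamoxifen was given at 8 to 10 weeks of age to both groups, and exposure began 2 weeks later. Mice C2, C5, D2 and D5 then inhaled cigarette smoke (CS) from 3R4F research cigarettes for 10 months, 6 h a day on 5 days a week, while mice F1, F3, M1 and M3 stayed in room air (RA). Lungs were digested 1 day after the last exposure, and CD45+ cells were set to 10% of the mixture, the rest being CD45-. The share of each type among the cells is therefore partly set by this mixing, whereas the level within a type is not. Each of 4 sequencing lanes held 1 CS and 1 RA mouse. Without multiplets and cells labelled cell cycle, 40074 cells of 32 types remained, with 2553 to 6371 cells and medians of 4254 to 6473 unique molecular identifiers (UMIs) per cell in a library. Of 40909 distinct cell barcodes, 197 occurred in more than 1 library. Xist was found in 88.2% and 88.7% of cells of the CS libraries labelled male, and Ddx3y in 33.7% and 41.4% of cells of the CS libraries labelled female, whereas both genes followed the labels in the RA libraries. The labelled sex was therefore used in 1 alternative fit only, which does not adjust for the sex that these transcripts show.

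Levels are transcripts per 10,000 transcripts of a cell, averaged over the cells of a type in 1 mouse, so that n counts mice. A type needed 20 cells in at least 3 mice of each group, which 22 of the 32 types met. Of 66 marker genes listed for 22 types, 59 were highest in the type they stand for. Cells labelled mast had Mcpt8 at 11.6 and Cpa3 at 9.22, but the mast cell genes Kit and Cma1 stood at 0.390 and 0.118 and Mcpt4 at 0, so they are named by their label only. Cells labelled erythrocyte held hemoglobin (Hbb-bs at 1532) together with the endothelial genes Pecam1 at 8.37 and Cdh5 at 6.15. In non-classical monocytes the 3 markers Nr4a1, Ace and Cx3cr1 stood at 13.1, 7.42 and 3.21. All 3 were higher elsewhere, Nr4a1 in peribronchial fibroblasts (16.9), Ace in arterial cells (12.6) and Cx3cr1 in cells labelled M (4.00). This name too is therefore that of the label. Cells labelled NG carried the neutrophil genes S100a8 and S100a9, which were highest there among all types.

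Cxcl12 (ENSMUSG00000061353.11) lies on chromosome 6 from 117168535 to 117181367 on the plus strand of GRCm38. Cxcr4 (ENSMUSG00000045382.6) lies on chromosome 1 from 128588199 to 128592293 on the minus strand, and Ackr3 (ENSMUSG00000044337.5) on the same chromosome from 90203980 to 90216751 on the plus strand. None of the 3 overlaps another annotated gene, and how reads were assigned was not tested. The 250 bases before each start site are shown from RefSeq (GRCm38.p6), 5′ to 3′ in the direction of the gene, because hypoxia-inducible factors are known regulators of this axis and their genes Hif1a and Epas1 were among those measured. Capitals mark every match, on either strand, to GCGTG or ACGTG, which hold the core of the hypoxia response element, or to the TATA box letters TATAAA.
Cxcl12, chr6:117168285-117168534, plus strand: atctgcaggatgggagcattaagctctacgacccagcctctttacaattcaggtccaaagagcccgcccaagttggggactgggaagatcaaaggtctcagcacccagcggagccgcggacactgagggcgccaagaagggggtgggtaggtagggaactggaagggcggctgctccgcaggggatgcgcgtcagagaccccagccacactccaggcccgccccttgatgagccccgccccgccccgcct
Cxcr4, chr1:128592300-128592549, minus strand: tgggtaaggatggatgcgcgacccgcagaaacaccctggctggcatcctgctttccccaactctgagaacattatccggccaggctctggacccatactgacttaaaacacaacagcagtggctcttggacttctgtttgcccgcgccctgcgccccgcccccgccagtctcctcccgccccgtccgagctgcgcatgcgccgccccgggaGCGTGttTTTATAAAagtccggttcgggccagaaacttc
Ackr3, chr1:90203730-90203979, plus strand: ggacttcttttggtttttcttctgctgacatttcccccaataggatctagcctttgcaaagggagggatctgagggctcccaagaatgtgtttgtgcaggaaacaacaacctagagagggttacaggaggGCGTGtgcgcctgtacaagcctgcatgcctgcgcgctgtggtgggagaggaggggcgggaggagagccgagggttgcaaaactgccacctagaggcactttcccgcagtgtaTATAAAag
Start sites are those of RefSeq. The window before Cxcl12 held none of these letters. Those before Cxcr4 and Ackr3 each held GCGTG, which begins 39 bases before the start of Cxcr4 (-39) and 120 bases before that of Ackr3 (-120), and each held TATAAA. In the Cxcr4 window, TATAAA overlaps its own match on the other strand, TTTATA. Among all 32851 windows of this length, 28.2% held GCGTG, 16.6% ACGTG and 12.4% TATAAA, so that such matches are common and describe the letters only.

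Cxcl12 was found mainly in arterial endothelial cells, adventitial fibroblasts and general capillary (gCap) cells. Averaged over 8 mice, its level was 8.08 ± 3.56 in arterial cells (SD, n = 8), 4.96 ± 0.973 in adventitial fibroblasts (SD, n = 8) and 4.41 ± 1.62 in gCap cells (SD, n = 8). Venous endothelial cells followed at 1.40, and peribronchial fibroblasts at 0.823 in the 6 mice with enough cells. Alveolar fibroblasts held 0.436 and lymphatic endothelial cells 0.410. Aerocytes, the other capillary type of the alveolus, held 0.0760, and mesothelial cells 0.0495. Immune and epithelial types among the 22 lay at or under 0.0827. Of the mural cells, pericytes had 0.271 in CS mouse D5, 0.453 in RA mouse F1 and 1.28 in RA mouse F3, and smooth muscle cells 0.619 and 0.883 in CS mice C5 and D2 and 0.326 in RA mouse F1. Both mural types had too few mice for a comparison.

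The endothelial types differed from each other in Cxcl12 in all 10 pairs, with the higher type higher in every mouse (exact two-sided sign-flip test over 8 mice, adjusted p = 0.0132 in each pair, adjusted over 39 endothelial and fibroblast pairs of the 3 genes). Arterial cells held 1.83 times the level of gCap cells and 5.77 times that of venous cells. GCap cells were far above aerocytes, which line the same capillaries and whose 0.0760 is within the range of types that should lack the gene. Among fibroblasts, adventitial cells held 11.4 times the level of alveolar fibroblasts (8 of 8 mice, adjusted p = 0.0132 by the same exact test) and 6.32 times that of peribronchial fibroblasts (6 of 6 mice, adjusted p = 0.0420 by the same exact test). Peribronchial and alveolar fibroblasts were not told apart (adjusted p = 0.222, exact test). When the 22 types were put in order, none of the 21 neighbouring pairs differed after adjustment over these pairs, including arterial cells against adventitial fibroblasts (higher in 7 of 8 mice, adjusted p = 0.369, exact test). In that test 1 pair alone at the smallest p of 8 mice, 0.00781, reaches no lower than 0.164.

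By number of molecules, gCap cells gave the largest part of Cxcl12. Of 32247 Cxcl12 UMIs in all types, they held 56.0% as a mean over mice, with a range of 35.8% to 69.5%. Adventitial fibroblasts held 22.3% and arterial cells 9.86%. These shares combine the level per cell with the number of cells that digestion and mixing recovered. In single cells, a Cxcl12 transcript was found in 72.6% to 90.0% of adventitial fibroblasts, at median depths of 8022 to 13187 UMIs, and in 29.3% to 72.8% of gCap cells, at 3024 to 5226 UMIs. In B cells, T cells, classical monocytes, NG cells, ciliated cells and club cells, which should lack the gene, the share per mouse was 0 to 6.38%, and the level at most 0.137.

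**Figure D1:**
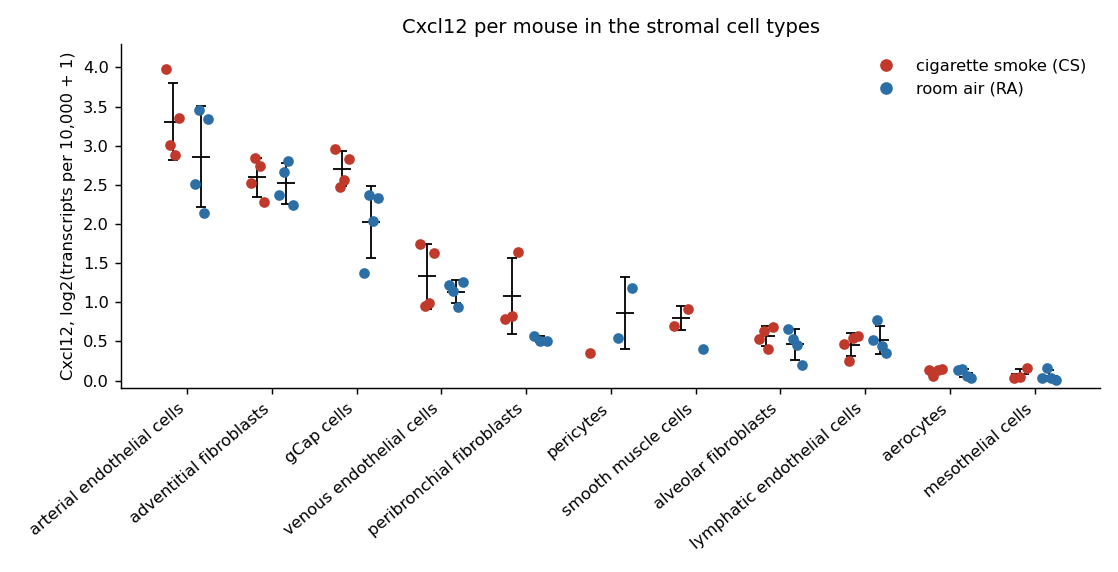
Cxcl12 level in each mouse, as log2 of transcripts per 10,000 plus 1, in the 11 endothelial, fibroblast, mural and mesothelial types, ordered by mean; dots are mice, lines are means with SD where at least 2 mice were measured. All 4 CS mice lie above all 4 RA mice in gCap cells, whereas the groups overlap in arterial cells and adventitial fibroblasts.

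Between exposures, Cxcl12 was compared in the 7 source types where 10% or more of cells in CS or in RA mice had the gene. The other 15 of the 22 types did not pass this filter. In 6 of these 7 types the estimate was higher in CS, and no difference passed an adjusted p of 0.05 in limma. Over all 22 types Cxcl12 was higher in CS in 20, including types with almost none of it, such as alveolar macrophages (0.137 in CS, 0.0196 in RA) and B cells (0.0716 in CS, 0.00724 in RA), so that the direction alone does not set the sources apart. Differences are given on the scale of log2(level + 1), which understates changes at low levels, and p-values are adjusted over all genes tested in the type. The share of all tested genes that passed was 10.3% in gCap cells, 3.1% in adventitial fibroblasts, 1.37% in alveolar fibroblasts, 0.669% in arterial cells, 0.13% in venous cells and 0% in lymphatic cells and peribronchial fibroblasts. The median difference over the 7 types was 0.19. An unadjusted p under 0.05 was found for Cxcl12 in gCap cells, where 35.3% of all genes had one, and in peribronchial fibroblasts, where 8.58% had.

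In gCap cells, Cxcl12 stood at 6.75, 4.58, 4.91 and 6.10 in CS mice C2, C5, D2 and D5 and at 1.59, 4.16, 3.12 and 4.05 in RA mice F1, F3, M1 and M3. The groups did not overlap, which was also so for 13.6% of all genes tested in gCap cells in the same direction, and F1 was the lowest mouse. The difference was 0.68 (SE 0.21, limma adjusted p = 0.0626; exact two-sided permutation p = 0.0286, the smallest that 4 against 4 allows). The limma adjusted p was 0.0493 among genes found in 25% of cells and 0.0496 with the ratio of summed UMIs. With the other alternatives that kept all mice it lay between 0.0626 and 0.0961, the highest with the lane as a block. It lay between 0.0562 and 0.156 with any 1 mouse left out. Beside this, the gCap markers Plvap (8.62 in CS, 14.2 in RA) and Gpihbp1 (11.1 in CS, 13.6 in RA) were lower in CS, with exact permutation p = 0.0286 for each. The third gCap marker, Aplnr, was 0.768 in CS and 0.480 in RA with overlapping groups (exact permutation p = 0.2). The arterial markers Gja5, Bmx and Gja4 summed to 2.21 to 2.75 in CS and 1.01 to 2.31 in RA (exact permutation p = 0.114). Gja4 made up most of this sum, at 2.22 in CS and 1.76 in RA. Over all mice it stood at 1.99 in gCap cells and 2.44 in arterial cells, so it hardly marks arterial cells here. Bmx was 0.212 in CS and 0.123 in RA (exact permutation p = 0.0571). In gCap cells with none of these 3 arterial transcripts, a selection made after the data were seen, Cxcl12 was 4.03 ± 0.583 in CS and 2.38 ± 0.800 in RA (SD, n = 4 each, exact permutation p = 0.0286). The selection kept 5268 of 9988 gCap cells and, because of Gja4, does not single out arterial cells. The part of arterial cells in the gCap difference was not tested.

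In arterial cells, Cxcl12 was 14.8, 7.03, 6.37 and 9.22 in the CS mice and 4.69, 9.93, 3.40 and 9.18 in the RA mice, in the same order of mice. These groups overlapped, with C2 the highest and M1 the lowest. The difference of 0.45 (SE 0.27) had a limma adjusted p of 0.466, and it was 0.20 without M1 and 0.22 without C2. In venous cells the levels of 2.36, 0.938, 0.982 and 2.10 in CS enclosed most of the RA levels of 1.32, 1.21, 0.913 and 1.39, with a difference of 0.19 (SE 0.17, limma adjusted p = 0.612) that was 0.05 without C2. C2 and D5 were thus the highest mice in venous cells, as they were in gCap cells. Adventitial fibroblasts, the second highest source, held 4.74, 6.18, 5.69 and 3.85 in CS and 4.16, 5.34, 5.97 and 3.72 in RA. The 2 ranges were almost the same, and the difference was 0.08 (SE 0.16, limma adjusted p = 0.807). Within lanes the CS mouse was higher in 4 of 4, by 0.128 to 0.575 per 10,000, and the limma adjusted p with the lane as a block was 0.754.

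Peribronchial fibroblasts were the other type in which the groups did not overlap. They held 0.721, 0.769 and 2.12 in CS mice C5, D2 and D5 and 0.485, 0.415 and 0.424 in RA mice F1, F3 and M1, from 23 to 64 cells a mouse. Of all genes tested there, 8% were without overlap and higher in CS. The difference of 0.56 (SE 0.21, limma adjusted p = 0.479; exact permutation p = 0.1, the smallest for 3 against 3) fell to 0.28 without mouse D5. In alveolar fibroblasts the difference was 0.10 (SE 0.09, limma adjusted p = 0.527), with 0.015 without M3 and 0.17 without F1, and in lymphatic endothelial cells it was -0.06 (SE 0.11, limma adjusted p = 0.881).

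Whether the difference in gCap cells exceeded that in the other sources was tested on the difference of the 2 types within each mouse. On the log2(level + 1) scale it was larger in gCap cells than in each of the 6 other types. The excess ran from 0.14 against peribronchial fibroblasts to 0.74 against lymphatic endothelial cells. Against arterial cells the excess was 0.23 (SE 0.20) and against adventitial fibroblasts 0.60 (SE 0.26). None passed, with limma adjusted p values between 0.311 and 0.933, and 4 of the 6 had an unadjusted p under 0.05, in tests where 8.71% (lymphatic cells), 9.55% (venous cells), 12.8% (adventitial fibroblasts) and 15.7% (alveolar fibroblasts) of all genes had one. Few genes of any kind passed these tests: 0.311% of all genes against adventitial fibroblasts, 0.14% against venous cells, 0.101% against alveolar fibroblasts, 0.0787% against arterial cells, 0.0357% against peribronchial fibroblasts and 0% against lymphatic cells. With a pseudocount of 0.1 in place of 1, the exposure difference in Cxcl12 was 1.11 in peribronchial fibroblasts and 0.84 in gCap cells. The order of these 2 types thus depends on the scale. A Cxcl12 difference particular to gCap cells was not shown, nor was it shown to be absent.

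Cxcr4 was highest in myeloid cells. Its level was 8.05 ± 1.91 in non-classical monocytes (SD, n = 7), 4.60 in cells labelled mast, 4.28 in NG cells and 3.83 in classical monocytes. B cells held 2.01, alveolar macrophages 1.51, NK and cytotoxic T cells 1.50 and T cells 1.25. Pericytes were an exception among the stromal cells, with 4.26 in CS mouse D5 and 1.79 and 1.98 in RA mice F1 and F3. A Cxcr4 transcript was found in 51.2% to 54.5% of their cells, and the immune gene Ptprc lay at 0 to 0.0771 there. The pericyte value of D5 comes from 22 cells.

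Within the endothelium, the Cxcr4 level per cell was highest in arterial cells. By number of molecules, gCap cells held 3.52% of all Cxcr4 UMIs as a mean over mice and arterial cells 2.29%. The level was 0.823 in arterial cells, 0.124 in gCap cells, 0.0197 in lymphatic cells, 0.0170 in aerocytes and 0.0116 in venous cells. Arterial cells held 6.67 times the level of gCap cells, and they exceeded venous cells, where the gene rests on 0 to 6.89 UMIs a mouse. Both differences were seen in 8 of 8 mice (adjusted p = 0.0132, exact sign-flip test over the 39 pairs). GCap cells exceeded aerocytes, which held 0 to 9.77 UMIs a mouse, again in 8 of 8 mice (adjusted p = 0.0132, same exact test). Aerocytes, venous and lymphatic cells were not told apart from each other (adjusted p = 0.423 to 0.762, exact test), nor were the 3 fibroblast types (adjusted p = 0.163 to 0.287, exact test). In the order of all 22 types, none of the 21 neighbours differed after adjustment. The nearest were 3 pairs at an adjusted p of 0.0547 by the exact test, the lowest that 3 pairs can reach there with 8 mice. These were classical monocytes against B cells, T cells against arterial cells and arterial against gCap cells, each higher in 8 of 8 mice. For arterial against gCap cells, only the adjustment differs from that over the 39 pairs above.

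**Figure D2:**
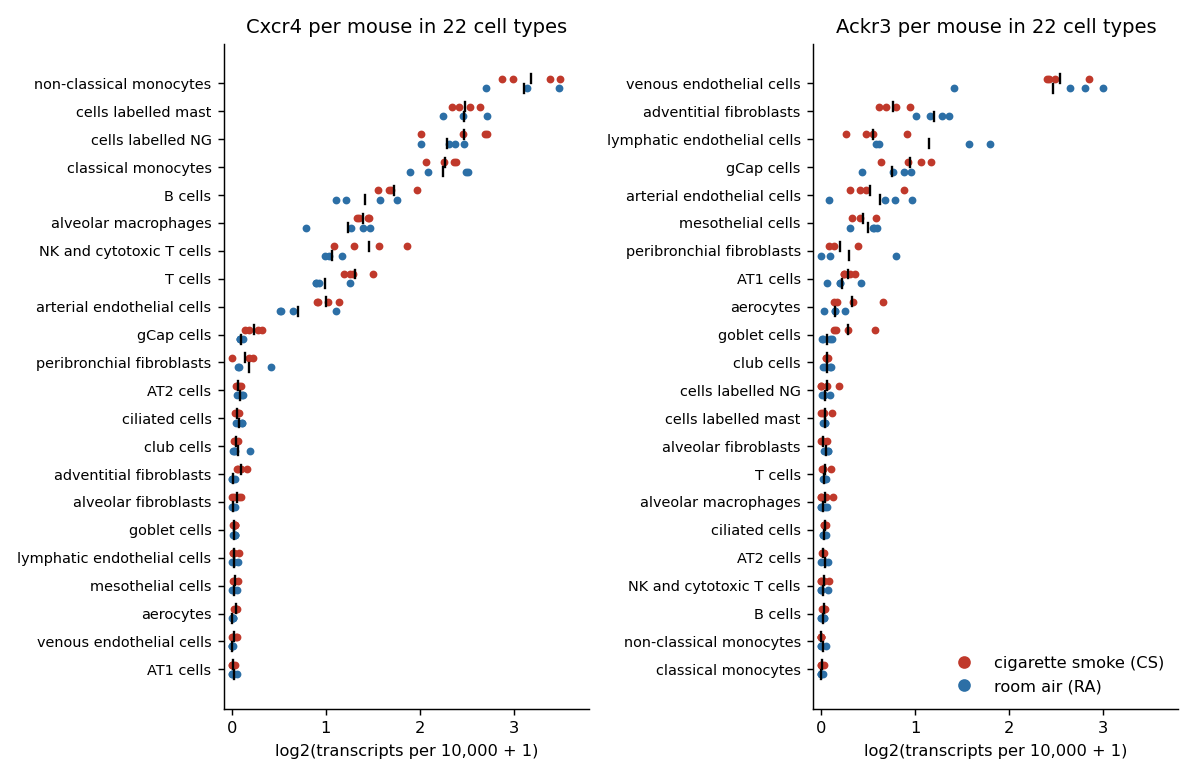
Cxcr4 (left) and Ackr3 (right) in each mouse over the 22 types with enough mice, as log2 of transcripts per 10,000 plus 1, ordered by mean; dots are mice and black ticks group means. Cxcr4 is high in immune types and, among endothelial types, in arterial cells, whereas Ackr3 is highest in venous cells, at 4.93 per 10,000, and at or under 0.0383 in every immune type.

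Cxcr4 passed the 10% filter in 10 types and was higher in CS in 9 of them, with a median difference of 0.17, but no difference passed an adjusted p of 0.05. Of all genes tested, 0.53% passed in alveolar macrophages, 0.199% in club cells and 0% in T, B, NK and cytotoxic T, NG and mast-labelled cells and both kinds of monocyte, and 3 of the 10 types had an unadjusted p under 0.05 for Cxcr4. These 3 were T cells, NK and cytotoxic T cells and arterial cells, in which 20.7%, 10.3% and 14.8% of all genes had one. The difference in NK and cytotoxic T cells was 0.39 (SE 0.16, limma adjusted p = 0.410) and in B cells 0.31 (SE 0.15, limma adjusted p = 0.393). Classical monocytes, whose release from bone marrow CXCR4 is known to restrain, had 0.02 (SE 0.15, limma adjusted p = 0.980), and non-classical monocytes 0.08 (SE 0.19, limma adjusted p = 0.956). NG cells had 0.18, alveolar macrophages 0.17, cells labelled mast 0.01 and club cells -0.03, all with overlapping groups. With 1 mouse left out, the estimate ranged from 0.09 (without F3) to 0.33 (without C5) in NG cells, and in alveolar macrophages it was 0.02 without F3. It was 0.25 without C2 in NK and cytotoxic T cells and 0.20 without F3 in B cells.

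In T cells, Cxcr4 was 1.83, 1.29, 1.40 and 1.45 in CS mice C2, C5, D2 and D5 and 0.862, 0.898, 1.40 and 0.867 in RA mice F1, F3, M1 and M3. Only M1 lay among the CS mice, and the other 3 RA mice lay below all of them. The difference was 0.32 (SE 0.10, limma adjusted p = 0.148; exact permutation p = 0.0857). Beside it, the T cell genes Cd3e, Cd3d and Trac summed to 8.77 to 10.9 in CS and 10.3 to 14.7 in RA, and the chemokine receptor Cxcr3 was 0.371 in CS and 0.757 in RA (-0.35, SE 0.10, limma adjusted p = 0.147). The part of these in the Cxcr4 difference was not tested.

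In arterial cells, Cxcr4 was 0.875, 0.894, 1.20 and 1.03 in CS and 0.569, 0.440, 1.15 and 0.429 in RA. Again M1 was the 1 RA mouse inside the CS range. The difference was 0.30 (SE 0.12, limma adjusted p = 0.276). With 1 mouse left out it ranged from 0.24 without M3 to 0.43 without M1. The limma adjusted p then ranged from 0.0489 to 0.465, and it was under 0.05 only without M1. The arterial markers in the same cells summed to 6.65 to 8.89 in CS and 4.17 to 6.19 in RA (exact permutation p = 0.0286), and the gCap markers Gpihbp1, Aplnr and Plvap to 10.7 to 12.4 in CS and 13.7 to 18.3 in RA (exact permutation p = 0.0286). Their part in the Cxcr4 difference was not tested.

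In gCap cells Cxcr4 was present in too few cells for the main test, with 6.38% of cells in CS and 3.08% in RA as means over mice. Its levels of 0.248, 0.217, 0.106 and 0.136 in CS mice lay above the 0.0661, 0.0615, 0.0871 and 0.0664 of the RA mice. With the filter lowered to 1% of cells the difference was 0.14 (SE 0.03, limma adjusted p = 0.0673; exact permutation p = 0.0286), and 9.72% of all genes in that test were without overlap and higher in CS. When every cell was thinned to 1000 UMIs, the share of gCap cells with a Cxcr4 transcript was 1.69% in CS and 0.701% in RA (exact permutation p = 0.0286). Ptprc stood at 0.0352 in CS and 0.0316 in RA, and in gCap cells with no Ptprc transcript Cxcr4 was 0.178 in CS and 0.0705 in RA (exact permutation p = 0.0286). In cells with no arterial marker it was 0.164 in CS and 0.0705 in RA (exact permutation p = 0.0286). As for Cxcl12, this selection does not single out arterial cells, and their part was not tested.

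The same direction without overlap was seen in adventitial fibroblasts and aerocytes, where at most 6.90% of the cells of a mouse had a Cxcr4 transcript. Adventitial fibroblasts had 0.0359, 0.0475, 0.121 and 0.0674 in CS and 0.0222, 0.00836, 0 and 0 in RA, and aerocytes had means of 0.0286 in CS and 0.00549 in RA. A transcript was found in 4.35% of adventitial fibroblasts in CS and 0.693% in RA, and in 1.33% of aerocytes in CS and 0.396% in RA. The gene thus passes even the 1% filter only through the group in which it is high, and no test is given for these types. For the same reason, the lack of overlap does not support a difference in them. It was also common among the genes of the main test, which Cxcr4 did not enter in these types. There, 743 of 9406 genes in adventitial fibroblasts and 599 of 6876 in aerocytes were higher in CS without overlap. Over the 11 types with a mean Cxcr4 level under 0.06, a limit set after the levels were seen, the mean was higher in CS in 6, the venous, lymphatic, aerocyte, alveolar fibroblast, adventitial fibroblast and mesothelial cells, and lower in 5, the AT1, AT2, ciliated, club and goblet cells. In lymphatic cells the means were almost equal, at 0.0200 in CS and 0.0194 in RA. The part of free RNA in the gCap difference was not tested.

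Ackr3 was highest in venous endothelial cells, and outside the endothelium in adventitial fibroblasts and mesothelial cells. Its level was 4.93 ± 1.63 in venous cells (SD, n = 8), 1.01 in adventitial fibroblasts, 0.930 in lymphatic cells, 0.826 in gCap cells, 0.519 in arterial cells and 0.398 in mesothelial cells. Alveolar fibroblasts held 0.0293, within the levels of the immune types. AT1 cells, the flat epithelium of the alveolus, held 0.199 and aerocytes 0.188. Every immune type lay at or under 0.0383. Venous cells held 9.50 times the level of arterial cells and 5.96 times that of gCap cells, higher in 8 of 8 mice each (adjusted p = 0.0132, exact sign-flip test over the 39 pairs), and 5.30 times that of lymphatic cells (7 of 8 mice, adjusted p = 0.0234, same exact test). Adventitial fibroblasts exceeded alveolar fibroblasts, which hold few transcripts (8 of 8 mice, adjusted p = 0.0132, same exact test). Lymphatic cells were not told apart from gCap cells (adjusted p = 0.820, exact test) or arterial cells (adjusted p = 0.322, exact test). Among the 21 neighbours in the order, no pair differed after adjustment, and venous cells against adventitial fibroblasts had adjusted p = 0.164 by the exact test, at the limit of 8 mice.

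The signalling and the scavenging receptor were thus highest at opposite ends of the vessel tree, Cxcr4 in arterial and Ackr3 in venous cells, while the ligand was highest in arterial cells, and all 3 genes were low in aerocytes. Of the 13420 Ackr3 UMIs, venous cells held 39.3% as a mean over mice (range 19.6% to 50.5%), gCap cells 25.4% (14.4% to 41.4%) and adventitial fibroblasts 12.6% (4.27% to 38.0%), ranges that overlap. Over the 22 types, as a description, the Pearson correlation of log2(level + 1) was 0.54 between Cxcl12 and Ackr3, -0.25 between Cxcl12 and Cxcr4 and -0.39 between the receptors. These points share mice, libraries and depth. The genes whose pattern over the types was most like that of Cxcl12 were Plat (r = 0.91), which encodes tissue plasminogen activator, Pknox2 (0.87), Lrrc32 (0.87), Uaca (0.82) and Gja4 (0.81), a connexin of arterial endothelium. Those most like Cxcr4 were Dclre1c (0.97), Il10ra (0.96), Fmnl1 (0.95), Grk2 (0.95), a kinase that phosphorylates activated G protein-coupled receptors, and Cebpz (0.94). Those most like Ackr3 were Prss23 (0.89), Tmem252 (0.88), Dll1 (0.87), a Notch ligand, Grrp1 (0.87) and Sema6b (0.87).

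Between exposures, Ackr3 passed the filter in 8 types, with 4 estimates higher, venous cells included, and 4 lower in CS on the log2 scale, and it was lower in adventitial fibroblasts of CS mice after adjustment. This was the only one of the 25 tests of the 3 genes that passed. Of all genes tested, 2.38% passed in AT1 cells, 0.306% in mesothelial cells and 0.177% in goblet cells, beside the shares given for the other types. The median over the 8 types was 0.0018. An unadjusted p under 0.05 was found in adventitial fibroblasts, lymphatic cells and goblet cells, in which 22.6%, 9.44% and 12.7% of all genes had one.

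In adventitial fibroblasts, Ackr3 was 0.929, 0.528, 0.737 and 0.613 in CS mice C2, C5, D2 and D5 and 1.23, 1.01, 1.44 and 1.58 in RA mice F1, F3, M1 and M3. All CS mice lay below all RA mice, and the CS mouse was lower in 4 of 4 lanes. The difference was -0.44 (SE 0.09, limma adjusted p = 0.0360; exact permutation p = 0.0286), where 1.19% of the genes tested in these cells passed as lower in CS and 6.24% were lower without overlap. The adjusted p was 0.102 with the lane as a block and 0.0620 among genes found in 1% of cells, so that the call rests on those choices. It was also lost when any mouse but C2 or F3 was left out, with estimates from -0.51 to -0.39 and adjusted p values up to 0.0825. With cells thinned to 1000 UMIs, 5.47% of adventitial fibroblasts in CS and 9.63% in RA had an Ackr3 transcript (exact permutation p = 0.0286). Vwf and Slc6a2, markers of the venous cells in which Ackr3 is highest, were at or under 0.482 and 0.381 in these fibroblasts. The venous list's other gene, Nr2f2, was higher in them (5.79 in CS, 4.86 in RA) than in venous cells (3.92), so it does not mark venous cells here, and the sum of the 3 was 6.19 in CS and 5.07 in RA (exact permutation p = 0.0571). In cells without Vwf and Slc6a2, Ackr3 was 0.720 ± 0.157 in CS and 1.28 ± 0.192 in RA (SD, n = 4 each, exact permutation p = 0.0286).

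The adventitial marker Pi16, a gene of fibroblasts around vessels and airways, fell with it. Pi16 was 4.47 in CS, with 3.77 to 5.04 over the mice, and 7.06 in RA, with 6.16 to 7.50 (exact permutation p = 0.0286). A Pi16 transcript was found in 45.5% to 59.5% of adventitial cells in CS and 59.5% to 71.2% in RA. The adventitial list of Pi16, Dcn and Col14a1 summed to 65.6 to 85.7 in CS and 85.9 to 102 in RA, and Dcn made up most of the sum. Dcn, at 68.7 in CS and 84.4 in RA (exact permutation p = 0.0571), and Col14a1, at 4.77 in CS and 4.01 in RA (exact permutation p = 0.543), each had overlapping groups. Of the alveolar fibroblast markers in the same cells, Npnt was 2.08 in CS and 1.17 in RA without overlap (exact permutation p = 0.0286) and Tcf21 was 1.45 in CS and 1.94 in RA (exact permutation p = 0.143). With Inmt they summed to 27.5 to 34.0 in CS and 25.2 to 33.9 in RA (exact permutation p = 0.257). Cells were then split by Pi16 after the data were seen. Over all 8 mice, Ackr3 was 1.48 in cells with a Pi16 transcript and 0.268 in cells without, higher in 8 of 8 mice (exact sign-flip p = 0.00781).

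Among the cells with Pi16, Ackr3 was 1.20, 0.783, 1.24 and 1.01 in CS and 1.67, 1.50, 2.26 and 2.20 in RA. All CS mice were again below all RA mice (exact permutation p = 0.0286). Among the cells without Pi16, Ackr3 was 0.289 ± 0.176 in CS and 0.247 ± 0.117 in RA (SD, n = 4 each, exact permutation p = 0.686), with 24 to 104 cells a mouse. On the log2(level + 1) scale, cells with Pi16 exceeded cells without by 0.68 in CS and 1.22 in RA (exact permutation p = 0.0286). On this scale the low level in cells without Pi16 leaves little room for a fall. Whether the exposure difference depends on Pi16 therefore cannot be read from these values. A lower share of cells with Pi16 and a lower Ackr3 level in those cells were thus both measured. Whether a Pi16 transcript is caught depends on depth, which had medians of 8022 to 12473 UMIs in CS and 8551 to 13187 in RA. Their part in the Ackr3 difference was not tested further.

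**Figure D3:**
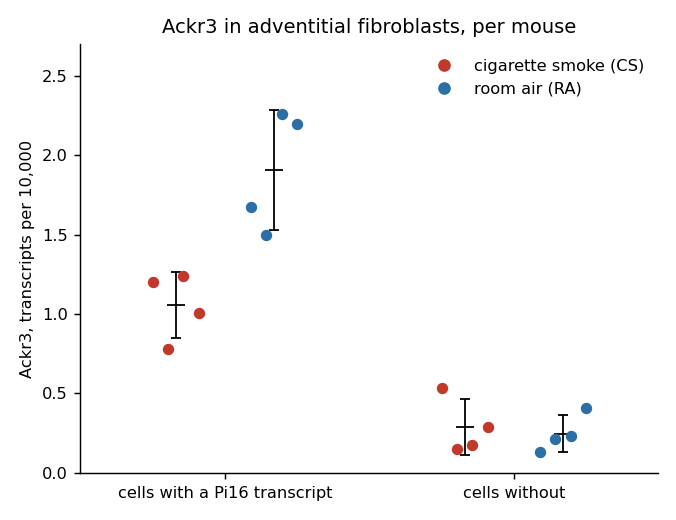
Ackr3 in adventitial fibroblasts of each mouse, in transcripts per 10,000, in cells with and without a Pi16 transcript; dots are mice, lines are means with SD (n = 4). In cells with Pi16 the 4 CS mice, at 0.783 to 1.24, lie below the 4 RA mice, at 1.50 to 2.26, and in cells without Pi16 the groups overlap.

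In venous cells, where Ackr3 is highest, levels were 4.38, 4.27, 6.23 and 4.63 in CS and 1.66, 5.28, 6.00 and 6.97 in RA. The RA range enclosed the whole CS range, because F1 was lowest and M3 highest. The log2 difference was 0.08 (SE 0.28, limma adjusted p = 0.925), although the mean level was lower in CS, at 4.88 against 4.98, and it turned to -0.28 without F1. No direction is therefore given for venous cells. Lymphatic cells held 0.390, 0.203, 0.472 and 0.881 in CS and 2.48, 0.500, 0.532 and 1.99 in RA. Their difference of -0.59 (SE 0.22, limma adjusted p = 0.401) was lower in 4 of 4 lanes and rested mainly on F1 and M3, with -0.37 when F1 was left out.

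Goblet cells had Ackr3 at 0.491, 0.216, 0.103 and 0.120 in CS and 0.0162, 0.00516, 0.0700 and 0.0862 in RA. All CS mice were above all RA mice, as for 7.24% of genes tested in goblet cells. Ackr3 passed the filter there only through the group in which it is high, with 23.5% of cells in CS and 9.86% in RA, so that neither the lack of overlap nor the test supports a difference. The difference was 0.23 (SE 0.07, limma adjusted p = 0.240; exact permutation p = 0.0286) and 0.13 without mouse C2. These cells were few, 23 to 137 a mouse, and deep, with medians of 25921 to 64068 UMIs. C2 was also the highest mouse for Ackr3 in aerocytes, at 0.580, where the other CS mice held 0.102 to 0.267 and RA mice 0.0236 to 0.190. GCap cells had a difference of 0.19 (SE 0.13, limma adjusted p = 0.315), AT1 cells 0.06, mesothelial cells -0.06 and arterial cells -0.11, all with overlapping groups. Without F1 these were 0.08 in gCap cells, 0.0099 in AT1 cells, -0.13 in mesothelial cells and -0.29 in arterial cells, and without D5 the mesothelial estimate was -0.0054. Tested within mice against 5 other types, the gCap difference in Ackr3 was larger by 0.63 against adventitial fibroblasts (limma adjusted p = 0.0659), 0.78 against lymphatic (0.445), 0.29 against arterial (0.530), 0.25 against mesothelial (0.417) and 0.11 against venous cells (0.938), and none passed. Of all genes, 0.0644% passed against mesothelial cells, beside the shares given above for the other types.

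**Figure D4:**
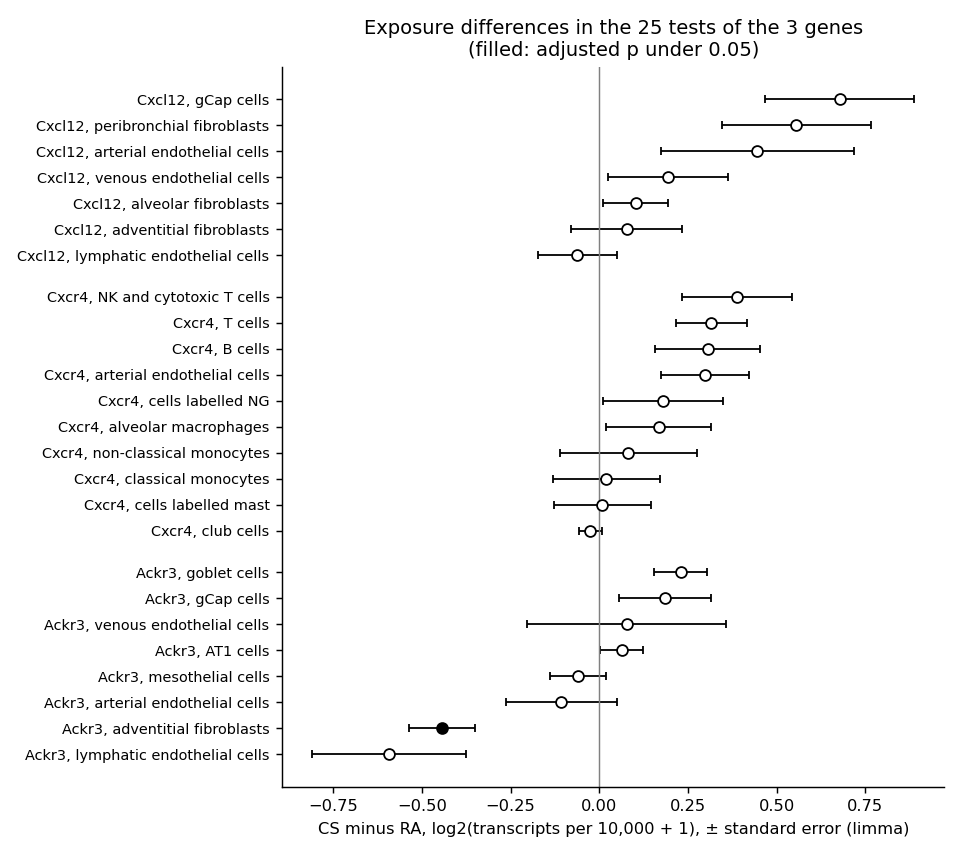
CS minus RA differences of the 3 genes in the 25 cell type tests, on the scale of log2(transcripts per 10,000 + 1), with limma standard errors; filled symbols have an adjusted p under 0.05. Ackr3 in adventitial fibroblasts, at -0.44, is the only filled point, and the highest estimate is Cxcl12 in gCap cells, at 0.68.

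**Figure D5:**
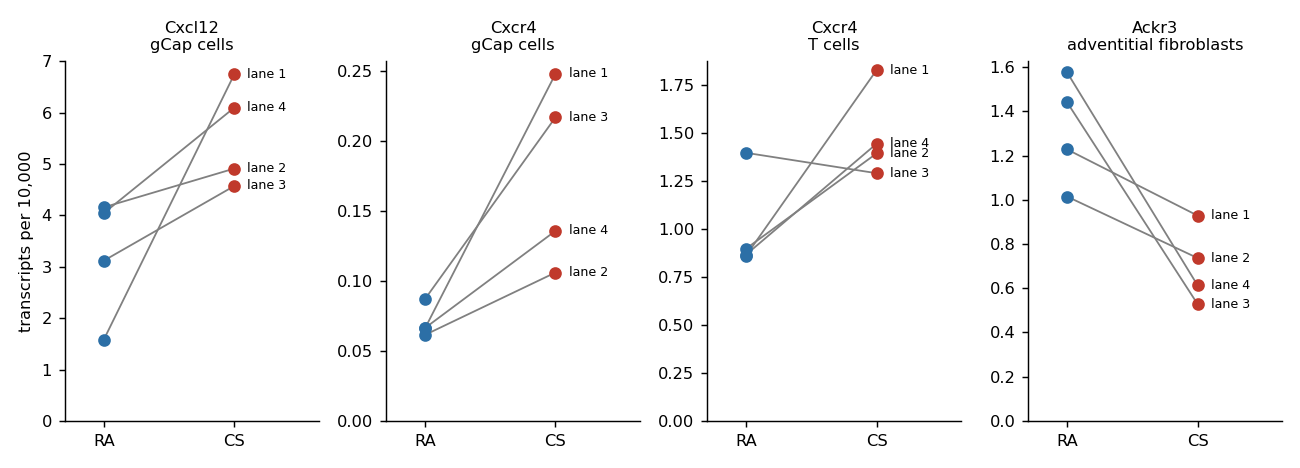
Levels in transcripts per 10,000 of the RA and the CS mouse of each sequencing lane, joined by a line, for 4 gene and type pairs. The CS mouse is higher in 4 of 4 lanes for Cxcl12 and Cxcr4 in gCap cells, in 3 of 4 for Cxcr4 in T cells, and lower in 4 of 4 for Ackr3 in adventitial fibroblasts.

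Other genes of the axis were read from 6 lists with 39 genes, of which 36 were tested in at least 1 of 20 source or receiving types. Of the 373 tests, 1 passed as higher in CS, 0 as lower, and 61 (16.4%) had an unadjusted p under 0.05, against 15.0% of all genes in the same types. Beside the shares given above, 1.96% of all genes passed in aerocytes. The list gene that passed was Gpc4, a glypican that carries heparan sulfate, in AT1 cells. It rose from 0.351 in RA to 0.635 in CS (0.28, SE 0.06, limma adjusted p = 0.0346), and 1.39% of genes tested in AT1 cells passed in that direction. The limma adjusted p of Gpc4 was 0.0831 among genes found in 1% of cells and 0.0819 with the ratio of summed UMIs, and the call was lost, at 0.0540 to 0.0931, when any mouse but RA mouse M3 was left out.

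By list, 0 of 37 limma tests passed for Cd4, Cxcr3, Sdc4 and Itgb1, partner molecules in the study's list of CXCL pairs from a general ligand and receptor database, with 4 at an unadjusted p under 0.05. All genes of the types in which a list was tested, weighted by its tests, gave between 14.5% and 16.4% at that level. Other ligands of these receptors (Mif and Adm, with Cxcl11 not passing the filter) had 0 of 24, with 2 at that level, and receptor signalling 0 of 184, with 25 (13.6%). The genes near the threshold that follow were chosen after their values were seen. In the signalling list Gnai2, an inhibitory G protein subunit that relays CXCR4 signals, came near in gCap cells, at 6.84 in CS and 8.91 in RA without overlap (-0.34, SE 0.10, limma adjusted p = 0.0503). Of the 6556 genes tested in gCap cells, 720 were lower in CS without overlap. Gnai2 was likewise lower without overlap in arterial cells (5.59 in CS, 7.71 in RA) and aerocytes (9.09 in CS, 11.7 in RA). The same held in NK and cytotoxic T cells (4.68 in CS, 6.04 in RA). The limma adjusted p was 0.171, 0.160 and 0.420 in these types. There, 360 of 7920, 488 of 6876 and 327 of 6019 genes were lower in CS without overlap. Among proteases that cut CXCL12, 0 of 24 tests passed, with 8 (33.3%) at an unadjusted p under 0.05 in limma, where all genes of those types gave 15.9%. These 24 tests came from 4 genes in the same mice and are not independent. The smallest unadjusted p among them was that of Mmp14 in club cells, at 0.0853 in CS and 0.0312 in RA (limma adjusted p = 0.112). Dpp4, which removes the amino end of CXCL12, was at 2.06 in CS and 1.51 in RA in gCap cells (limma adjusted p = 0.117). Its groups overlapped. Transcription factors linked to Cxcl12 had 0 of 51, with 12 (23.5%) at that level. Of these, Epas1 encodes hypoxia-inducible factor 2 alpha. In alveolar macrophages it was 1.86 in CS and 0.712 in RA (0.76, limma adjusted p = 0.0506). Hif1a went the other way in the same cells, at 0.277 in CS and 0.635 in RA (-0.36, limma adjusted p = 0.298). Ebf1 was 1.46 in CS and 0.992 in RA in gCap cells (0.29, limma adjusted p = 0.0629). With overlapping groups, it was also higher in venous (1.08 in CS, 0.693 in RA) and arterial cells (5.61 in CS, 3.84 in RA). Heparan sulfate proteoglycans had the 1 call, Gpc4, in 53 tests, with 10 (18.9%) at that level. The median difference lay between -0.04 and 0.11 in every list, and over all 373 tests it was 0.02.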

How the data were processed

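The authors sequenced 10x 3′ libraries of 8 lungs, aligned reads with STAR 2.7.3a and STARsolo to GRCm38.p6 (submitters' processing notes), removed free RNA with SoupX, clustered the cells and named their types. The deposited matrix holds expected counts of UMIs after this correction (1.28% whole within 1e-06), not scaled. The deposited cell table gives mitochondrial percent, which was not used further. Because the counts are corrected, no count model was run. Counts were scaled to 10000 per cell and averaged per mouse and type (at least 20 cells), and log2(mean + 1) was tested with limma 3.58.1 (R 4.3.3, eBayes with trend) over genes found in 10% or more of cells in CS or RA, adjusting by Benjamini-Hochberg over the genes of a type at 0.05. The fit was tested on simulated data, with shifts larger than any difference of the 3 genes in the main fit. Exact permutation and sign-flip tests over mice are two-sided, and printed permutation p-values are unadjusted (over the 25 tests of the 3 genes, the smallest adjusted value was 0.238, for Cxcl12 in gCap cells and Ackr3 in adventitial fibroblasts and goblet cells). Alternatives changed the pseudocount, the filter, the averaging, the lane or sex term, the scaling, the minimum of cells and the mice included. Mice are the replicates, 4 a group, and libraries held 31094695 to 52753531 UMIs in the cells used, so that levels near 0.01 rest on few molecules. The lane on the labels pairs 1 CS with 1 RA mouse; deviations of paired mice in gCap cells correlated at 0.02, -0.03, -0.27 and 0.39. Named genes were the 3 members, list genes that passed (those near the threshold were added after their values were seen), the 5 genes with the highest correlation over types among genes reaching 1 in some type, and markers. The members and lists were chosen with earlier results of these data known, and the 39 pairs of types, the Pi16 split and the marker-free cells were added after levels were seen.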

Additional observations from a re-analysis of the deposited data

Results flagged for a closer look

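In 44 groups of 4 mice, 3 held a mouse far from the other 3, where about 1 in 20 such groups (2.2 of 44) does so by chance. Cxcr4 in T cells of RA mouse M1 was 1.40, against 0.862 to 0.898 in the other RA mice. M1 was also the highest RA mouse for Cxcr4 in arterial, gCap, B, NG and mast-labelled cells, alveolar macrophages and both kinds of monocyte. It was not the highest in NK and cytotoxic T cells or in club cells. Cxcr4 in club cells of RA mouse F1 was 0.141, against 0.00668 to 0.0275. Ackr3 in mesothelial cells of F1 was 0.237, against 0.469 to 0.510, and F1 was the lowest RA mouse for Ackr3 in venous, arterial, gCap and AT1 cells too.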

How the results depend on the processing

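Of 383 re-estimated differences of the 3 genes in single types, 351 kept their direction and side of the threshold, 8 lost the call, 3 gained one and 21 changed sign. For Cxcl12 the number of types passing went from 0 to 1 (gCap cells) among genes in 25% of cells and with the ratio of sums. For Cxcr4 it was 0 to 1 with a mouse left out (1 without RA mouse M1). For Ackr3 it fell from 1 to 0 among genes in 1% of cells and with the lane as replicate block, and was 0 to 1 with a mouse left out; the lane block changed no other call of the 3 genes. List genes passing numbered 2 with a pseudocount of 0.1, 3 among genes in 25% of cells, 0 among genes in 1%, 4 with the ratio of sums, 2 with the lane block, 2 with labelled sex, 2 with medians equal, and 0 to 2 with a mouse left out. With at least 50 cells a mouse, which leaves fewer types, 3 neighbouring pairs differed for Cxcl12 and 3 for Cxcr4. The ratio of sums turned Cxcr4 to -0.042 in alveolar macrophages and 0.0061 in club cells, and equal medians turned it to -0.027 in cells labelled mast and -0.0069 in classical monocytes. Ackr3 in cells without Pi16 was 0.042. With a mouse left out, Cxcl12 ranged from -0.12 to 0.022 in lymphatic cells and from -0.016 to 0.18 in adventitial fibroblasts. Cxcr4 ranged from -0.045 to 0.015 in club, -0.10 to 0.13 in mast-labelled, -0.10 to 0.11 in classical and -0.12 to 0.27 in non-classical monocytes, and Ackr3 from -0.29 to 0.0059 in arterial and -0.28 to 0.25 in venous cells. The cause was not tested. By CS mice alone gCap cells ranked 2 for Cxcl12, and by all or RA mice alone 3.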
